A study of Mus musculus with 8 samples.

Results

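Fatty acid oxidation genes were examined in 2 fractions of endogenous CD8+ T cells that differed in surface IL-18Rα, the ligand-binding chain of the interleukin-18 receptor. The 34 genes were those whose name in the deposited table equalled an entry of a fixed list covering lipolysis, fatty acid activation, the carnitine shuttle, mitochondrial and peroxisomal β-oxidation and the PPAR receptors. Each was found once among the 47493 genes of the table. RNA was sequenced in 8 libraries from 4 mice, each of which gave an IL-18Rα hi-enriched fraction, retained on a magnetic column, and the flow-through of that column, which served as the control. All mice, and so both fractions, had the same history. They were female C57BL/6 animals aged 6 to 8 weeks, which received 200000 B16F10 melanoma cells on day 0, 300 mg/kg cyclophosphamide on day 3 and 2000000 Thy1.1 Pmel-1 cells on day 5. Human IL-2 at 10000 IU was given daily for 3 days, and 200 μg of the CD4-depleting antibody GK1.5 weekly for 3 weeks from day 10. On day 25, the Thy1.1-negative CD8+ cells of inguinal lymph nodes and spleen were purified with beads and then divided by a PE-labelled antibody to IL-18Rα. The fractions are therefore enriched rather than pure, no untreated mice were analysed here, and in such bulk samples fewer cells of a type and less RNA per cell cannot be told apart.

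Fatty acids are released from stored lipid by lipases, joined to coenzyme A by acyl-CoA synthetases and carried into mitochondria as carnitine esters. There, each turn of the β-oxidation spiral shortens the chain through a dehydrogenase, a hydratase, a second dehydrogenase and a thiolase, and very long chains are first shortened in peroxisomes. Oxidation of fatty acids is known as a fuel route of memory and resting CD8+ T cells, whereas activated effector cells rely more on glycolysis.

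The values were FPKM, fragment values scaled to transcript length and to library depth, which the authors computed and which allow levels of different genes to be set side by side. Depth was estimated at 14100000 to 17800000 fragments per library, and the summed FPKM of a library lay between 656715 and 711678. Il18r1, which encodes IL-18Rα and checks the labels, had a mean of 30.6 ± 6.96 FPKM in the control libraries and of 110.8 ± 3.87 in the enriched ones (SD, n = 4 each), higher in 4 of 4 mice (adjusted p = 0.00029 by limma). The 8 CD8 T-cell identity genes were detected in every library, with a summed level of 1337 to 2548 FPKM in flow-through and 2542 to 2724 in enriched libraries. The lowest of these sums was that of flow-through replicate 1, which also had the highest summed level of 12 erythroid genes, 3067 FPKM, against 962.4 to 1679 in the other flow-through libraries and 241.1 to 1641 in the enriched ones. Of other marker lists, 7 of 8 dendritic cell genes, 5 of 7 NK cell genes, 4 of 11 myeloid genes, 4 of 8 γδ T-cell genes and 3 of 10 proliferation genes were called higher in the enriched fraction, and 4 of 12 erythroid and 5 of 10 naive T-cell genes lower. Over all tested genes, 14.1% were called higher and 13.7% lower. The dendritic cell genes summed to 63.2 to 194.2 FPKM in flow-through and 269.6 to 795.3 in enriched libraries, the NK cell genes to 71.5 to 163.2 and 166.9 to 266.4, and the myeloid genes to 490.7 to 2574 and 745.9 to 2971. The γδ T-cell genes summed to 55.9 to 82.8 and 82.2 to 170.0, the proliferation genes to 899.3 to 1509 and 1259 to 1762, and the naive T-cell genes to 831.1 to 1722 and 912.3 to 1076. No marker of these 7 lists was listed at 0 in all libraries, and their part in the differences below was not tested.

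Without the mouse as a block, no fatty acid oxidation gene was called higher in IL-18Rα hi-enriched cells. With that block, Cpt1a and Acox3 were called higher. Some genes of activation, of the first and last steps of the spiral and of unsaturated fats were called lower in both tests. Others of the same steps, such as Acsl5, Acadl and Hadhb, were not called without the block. Of the 34 genes, 32 reached a mean of 1 FPKM and were tested with limma on log2(FPKM + 1), with p-values adjusted over all 12166 tested genes. Without the block, the count called higher was 0, with 2 at an unadjusted p under 0.05, and 7 were called lower: Acsl1, Acsl6, Acads, Acadm, Acadvl, Acaa2 and Eci2. This was 21.9% of the 32, against 13.7% of all tested genes called lower and 14.1% called higher. The remaining 25 did not pass the threshold. The median log2 fold change of the 32 genes was -0.15, against -0.02 over all tested genes, with 22 estimates below 0 and 10 above. The libraries of the fractions did not overlap, with the enriched ones lower, for 10 of the 32 genes (31.2%, against 15.9% of all tested genes) and, with the enriched ones higher, for 0 (against 16.4%). The summed level of the 34 genes was 1085 to 1268 FPKM in flow-through and 991.4 to 1058 in enriched libraries, so the 2 ranges did not overlap but lay close together.

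Both directions of call depended on how mice and libraries were handled. Blocking on the mouse, 13 members were lower (40.6%, against 22.7% of all) and 2, Cpt1a and Acox3, were higher (6.25%, against 22.2%), and the 7 calls of the unblocked test were among them. When each library was instead scaled to its CD8 T-cell identity genes (T-cell scaling), the median of all tested genes moved to -0.33 and that of the 32 genes to -0.48, and of the 7 only Acsl1 stayed past the threshold, against 7.44% of all genes called lower and 4.18% higher. Like the median of all tested genes, the estimates of the other 6 were then further below 0, as for Acaa2 (-0.89), Acadm (-0.76) and Acsl6 (-1.78), with larger SEs. With T-cell scaling and the mouse as a block together, a setting added after seeing the data, 10 members were lower and 0 higher, against 18.3% and 5.02% of all genes, and Acsl1, Acsl6, Acadm, Acaa2 and Eci2 were among the 10.

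**Figure D1:**
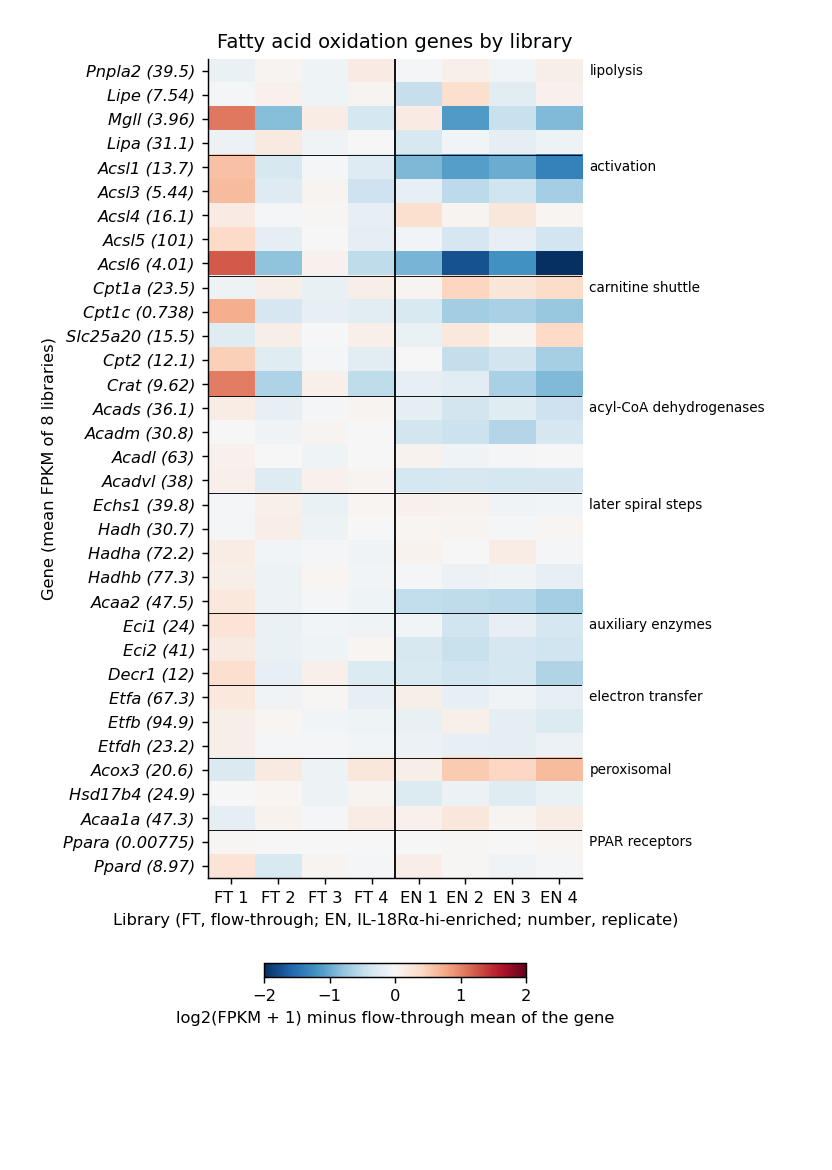
Level of each of the 34 fatty acid oxidation genes (rows, by role, with the mean FPKM of the 8 libraries in brackets) in 4 flow-through (FT) and 4 IL-18Rα hi-enriched (EN) libraries (columns). Colour is log2(FPKM + 1) minus the gene's flow-through mean. Acsl1, Acsl6 and Acaa2 are blue in all 4 enriched libraries, and flow-through replicate 1 is the highest flow-through library for 23 of the 34 genes.

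**Figure D2:**
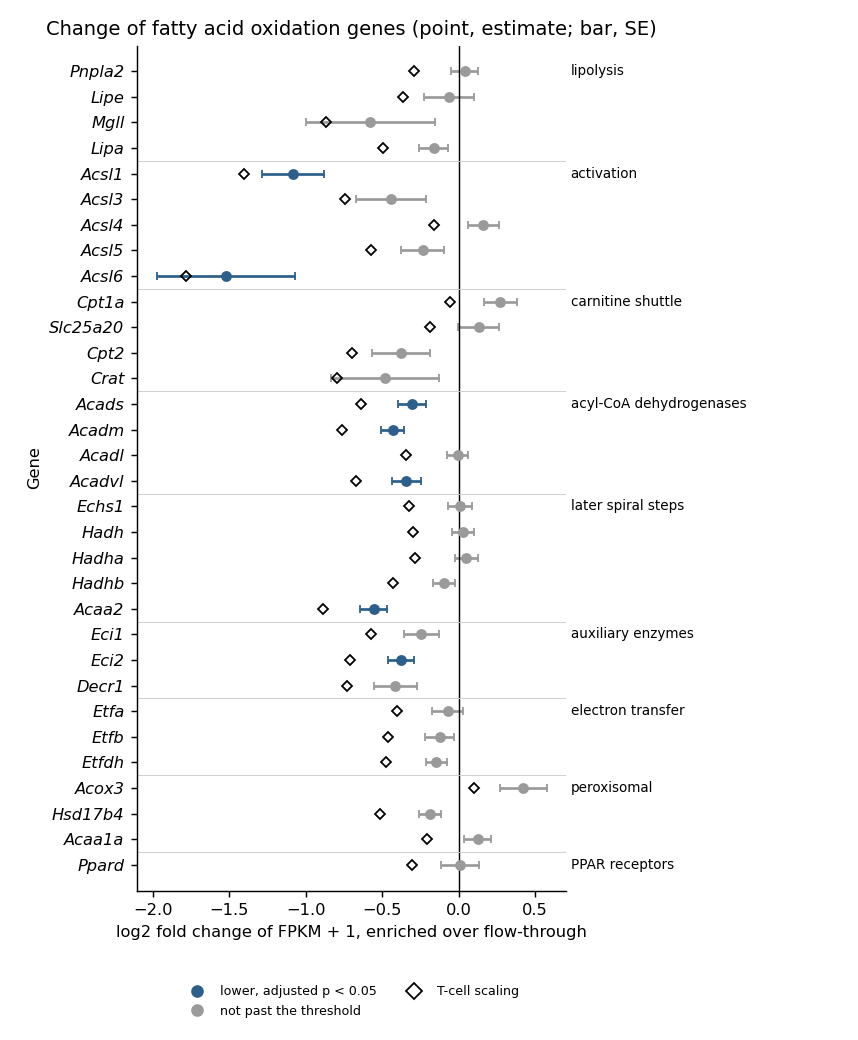
Log2 fold change of FPKM + 1, enriched over flow-through, for the 32 tested genes by role (points, estimates; bars, SE; 4 libraries per fraction). Blue points mark the 7 genes with an adjusted p under 0.05 by limma, all below 0, and open diamonds give the estimate after T-cell scaling, which lies further to the left for each gene.

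Lipases release fatty acids from stored triglyceride and from lipoprotein-derived lipid, and none of the 4 lipase genes passed the threshold. Pnpla2, which encodes adipose triglyceride lipase and takes the first fatty acid off a triglyceride, was at 39.0 ± 3.79 and 40.0 ± 2.51 FPKM (SD, n = 4 each), with a 95% interval of the log2 difference from -0.16 to 0.24. Lipe, hormone-sensitive lipase, was at 7.64 ± 0.490 and 7.44 ± 1.99 FPKM, and Lipa, the lysosomal acid lipase, at 32.9 ± 3.16 and 29.3 ± 2.41. The estimate for Lipa was -0.16, with an interval from -0.38 to 0.05. Mgll, monoacylglycerol lipase, varied most between mice, at 10.2, 1.98, 4.99 and 3.22 FPKM in flow-through replicates 1 to 4 and at 5.02, 1.44, 2.98 and 1.91 in enriched replicates 1 to 4. The ranges overlapped, yet the enriched library was the lower one in 4 of 4 mice, and Mgll was called with the mouse as a block (log2 fold change -0.58, adjusted p = 0.0091 by limma) but not without it (adjusted p = 0.33). Without flow-through replicate 1 its unblocked estimate was -0.23.

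The largest differences were in the long-chain acyl-CoA synthetases, which attach coenzyme A to fatty acids and so commit them to oxidation or to lipid synthesis. Acsl1, an isoform often tied to oxidation, was at 28.4, 14.7, 18.3 and 15.4 FPKM in flow-through replicates 1 to 4 and at 9.51, 8.14, 8.84 and 6.63 in enriched replicates 1 to 4. Every enriched library was below every flow-through library. Acsl1 fell by 1.09 on the log2 scale (SE 0.20, adjusted p = 0.0066 by limma), a flow-through mean 2.32 times the enriched one. It was the one member called after T-cell scaling as well (log2 fold change -1.40, adjusted p = 0.035). Acsl1 spans chr8:46471037-46536051 of mm10 on the forward strand.

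Acsl6, an isoform known from brain and from red cell precursors, was at 14.3, 2.72, 5.95 and 3.57 FPKM in the flow-through and at 2.40, 0.945, 1.81 and 0.423 in the enriched fraction, in replicate order. The lowest flow-through library was only just above the highest enriched one, and replicate 1 of the flow-through stood far above the others. Acsl6 fell by 1.52 on the log2 scale (SE 0.45, adjusted p = 0.037 by limma). Without that library the fall was 1.11 (adjusted p = 0.043), and the call was lost in 4 of the 8 tests that left out 1 library (flow-through replicate 3 or enriched replicate 2, 3 or 4) and after T-cell scaling (adjusted p = 0.061).

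Of the 12 erythroid genes, 4 were called lower in the enriched fraction, Gata1, Car1, Tfr2 and Epor, and the other 8 were not called. Gata1, the red cell lineage transcription factor, singled out after its values were seen, was at 117.5, 32.7, 64.2 and 43.2 FPKM in flow-through replicates 1 to 4 and at 30.7, 8.13, 20.5 and 7.22 in the enriched ones. The order of the 8 libraries from high to low was the same for Gata1, Acsl1 and Acsl6, for 1 other erythroid gene, Tfr2, and for none of the other 32 members. None of the 4 globin genes followed it, and Hba-a1 was at 507.3, 72.2, 244.4 and 90.6 FPKM in the flow-through and at 478.3, 46.5, 163.5 and 55.0 in the enriched fraction. The part of red cell precursors in the synthetase difference was not tested.

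The other synthetase genes did not pass the threshold. Acsl5, an isoform of mitochondrial and endoplasmic reticulum membranes, was by far the most abundant, at 109.9 ± 21.9 and 92.4 ± 10.1 FPKM, and was called lower only with the mouse as a block (log2 fold change -0.23, adjusted p = 0.037 by limma). Acsl3, a synthetase of lipid droplets, was at 6.52 ± 2.60 and 4.36 ± 0.818 FPKM and was likewise called only with the block (-0.44, adjusted p = 0.021). Without flow-through replicate 1 the unblocked estimates were -0.11 for Acsl5 and -0.23 for Acsl3. Acsl4, which prefers arachidonic acid, was at 15.1 ± 1.53 and 17.0 ± 1.69 FPKM, higher in the enriched library in 4 of 4 mice. Its estimate of 0.16 turned to -0.16 under T-cell scaling, where the median of all tested genes was -0.33. As shares of the summed FPKM of the 5 genes, which do not depend on the scaling of a library, Acsl1 took 12.0% ± 0.973 in flow-through and 6.69% ± 0.417 in enriched libraries. Acsl6 took 3.84% ± 2.08 and 1.08% ± 0.587, Acsl4 9.81% ± 1.30 and 13.8% ± 0.327, and Acsl5 70.3% ± 2.41 and 74.9% ± 0.783 (SD, n = 4 each). For these 4 genes the ranges of the 2 fractions did not overlap, while Acsl3 overlapped, at 4.04% ± 0.635 and 3.51% ± 0.261. The 5 shares of a library make up a whole, so a share lost by 1 gene is gained by others, and these are not separate results. Acsl5 gained share although its FPKM was lower in the enriched library of 4 of 4 mice.

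**Figure D3:**
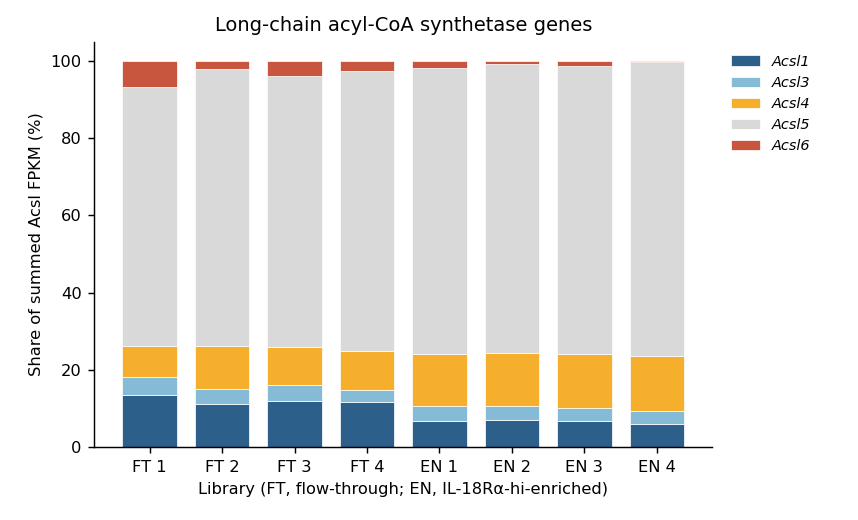
Share of each long-chain acyl-CoA synthetase gene in the summed Acsl FPKM (y axis, percent) of each library (x axis; FT, flow-through; EN, enriched). Acsl5 takes the largest share in every library, Acsl1 takes 11.2% to 13.4% in the flow-through and 6.11% to 7.09% in the enriched libraries, and Acsl4 8.06% to 11.2% and 13.5% to 14.3%.

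Promoters were compared because PPAR and RXR, nuclear receptors that regulate this pathway, read repeats of the 6-base motif AGGTCA. Windows from 250 bases before to 50 bases after the start were taken from RefSeq (GRCm38.p6) for 30 of the 34 genes, and not for Crat, Acaa2, Hsd17b4 and Decr1. AGGTCA was found on either strand in 6 of the 30 genes (20%, against 18.1% of all 27025 genes): Acadm, Acadvl, Acsl6, Cpt1a, Cpt1c and Echs1. AAGGTCA, which contains it, was found in 2, Acadm and Acsl6 (6.67%, against 5.38%), and a direct repeat with 1 free base, AGGTCANAGGTCA, in 0 (0.0481% of all genes). The matches describe letters only and were about as frequent as elsewhere. The stretches before the start are printed for the 3 genes that were both lower in the enriched fraction and held a match, 5′ to 3′ on the gene's strand with the motif, or its reverse complement, in capitals: chr11:54303574-54303797 (forward strand) for Acsl6, chr3:153944644-153944893 (reverse strand) for Acadm and chr11:70015429-70015678 (reverse strand) for Acadvl. All 3 lie upstream of the annotated gene.
Acsl6: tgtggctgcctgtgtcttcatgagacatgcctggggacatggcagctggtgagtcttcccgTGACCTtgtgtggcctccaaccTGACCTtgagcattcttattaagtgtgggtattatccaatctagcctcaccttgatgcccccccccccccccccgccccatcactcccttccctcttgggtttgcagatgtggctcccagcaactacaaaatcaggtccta
Acadm: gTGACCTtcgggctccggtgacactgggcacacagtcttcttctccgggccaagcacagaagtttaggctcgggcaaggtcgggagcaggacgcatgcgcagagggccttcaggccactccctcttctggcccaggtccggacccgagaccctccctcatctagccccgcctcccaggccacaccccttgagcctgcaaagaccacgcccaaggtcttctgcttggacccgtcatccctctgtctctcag
Acadvl: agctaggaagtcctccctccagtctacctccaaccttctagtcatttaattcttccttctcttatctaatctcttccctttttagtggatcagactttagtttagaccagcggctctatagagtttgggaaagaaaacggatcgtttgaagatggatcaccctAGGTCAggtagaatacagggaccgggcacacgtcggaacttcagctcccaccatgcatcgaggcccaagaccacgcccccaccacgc

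Acyl-CoA dehydrogenases carry out the first step of the spiral, each for its own chain length. Of the 4 genes, 3 were called lower without the block (75%, against 13.7% of all tested genes) and 0 higher (against 14.1%). Acadm, the medium-chain enzyme, was at 35.8, 33.7, 36.6 and 35.6 FPKM in flow-through replicates 1 to 4 and at 27.2, 26.0, 23.4 and 27.7 in enriched replicates 1 to 4. Its flow-through libraries lay within 3 FPKM of each other and all enriched ones were lower. Acadm fell by 0.43 on the log2 scale (SE 0.07, adjusted p = 0.0052 by limma), and the call held in each of the 8 tests that left out 1 library.

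Acadvl, the very-long-chain enzyme, was at 45.9, 35.4, 45.3 and 44.4 FPKM in the flow-through and at 32.9, 33.8, 33.0 and 33.6 in the enriched fraction. The enriched libraries were nearly equal, and flow-through replicate 2 was only slightly above them. Acadvl fell by 0.34 (SE 0.09, adjusted p = 0.026), a call lost in 6 of the 8 tests without 1 library. On the opposite strand, Dvl2 shares 42.9% of the exon bases of Acadvl, and its level was 18.7 ± 1.60 and 16.4 ± 0.894 FPKM. The strand of the reads may not have been used in counting, so reads of the 2 genes cannot be told apart there.

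Acads, the short-chain enzyme, was at 44.3, 35.4, 39.0 and 41.3 FPKM in the flow-through and at 34.8, 30.6, 33.7 and 29.6 in the enriched fraction. The fractions were separated by less than 1 FPKM. Acads fell by 0.30 (SE 0.09, adjusted p = 0.038), which was also lost in 6 of the 8 tests. Acadl, the long-chain enzyme, was the most abundant of the 4 and was not called, at 63.1 ± 3.14 and 62.8 ± 2.86 FPKM (SD, n = 4 each). The 95% interval of its log2 difference ran from -0.16 to 0.15.

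**Figure D4:**
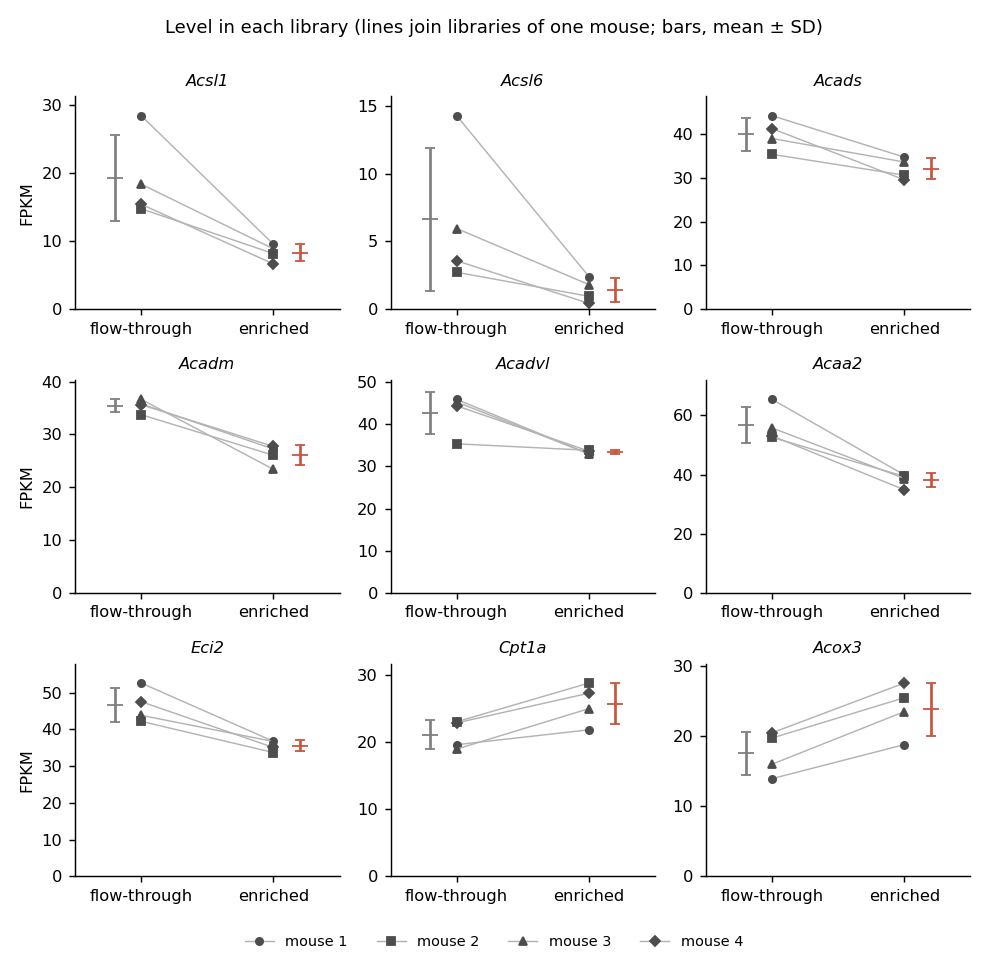
FPKM (y axis, from 0) in the flow-through and the enriched library of each of 4 mice for the 7 genes called lower and for Cpt1a and Acox3. Symbols are libraries, lines join those of one mouse, and coloured bars give the mean ± SD of a fraction. All lines fall for the 7 genes and all rise for Cpt1a and Acox3.

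Of the 5 genes of the later steps of the spiral, only Acaa2 was called lower (20%, against 13.7% of all tested genes). Hadhb, whose protein joins the last 3 steps, was not. Acaa2, a mitochondrial thiolase that releases acetyl-CoA, was at 65.5, 52.6, 55.8 and 53.1 FPKM in flow-through replicates 1 to 4 and at 39.9, 39.4, 38.7 and 34.9 in enriched replicates 1 to 4. Every enriched library was well below every flow-through library. Acaa2 fell by 0.56 on the log2 scale (SE 0.09, adjusted p = 0.0040 by limma) and was called in all 8 tests without 1 library.

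Echs1, the short-chain hydratase, was at 39.7 ± 2.83 and 39.9 ± 2.31 FPKM, and Hadh, the dehydrogenase of the third step, at 30.3 ± 2.13 and 31.0 ± 0.770. Hadha and Hadhb encode the subunits of the trifunctional protein, which joins the last 3 steps for long chains on the inner mitochondrial membrane. Their levels were near each other, at 70.9 ± 5.23 and 73.5 ± 3.71 FPKM for Hadha and at 80.0 ± 5.55 and 74.6 ± 3.09 for Hadhb. The 2 genes are transcribed away from each other, with 272 bases between their RefSeq starts. The 95% intervals of the log2 difference ran from -0.17 to 0.19 for Echs1, from -0.13 to 0.19 for Hadh, from -0.12 to 0.22 for Hadha and from -0.26 to 0.07 for Hadhb.

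Auxiliary enzymes prepare unsaturated fatty acids for the spiral by moving or removing double bonds. Of the 3 genes, 1 was called lower without the block (33.3%, against 13.7% of all tested genes). All 3 were lower in the enriched library of 4 of 4 mice, which held for 17 of the 32 tested members. Eci2, an enoyl-CoA isomerase, was at 52.6, 42.2, 43.8 and 47.5 FPKM in the flow-through and at 36.7, 33.7, 36.7 and 35.1 in the enriched fraction. The fractions did not overlap, and Eci2 fell by 0.38 (SE 0.08, adjusted p = 0.013 by limma), also in each of the 8 tests without 1 library. Decr1, the mitochondrial 2,4-dienoyl-CoA reductase, was at 17.5, 12.2, 14.9 and 11.2 FPKM and at 10.9, 10.2, 10.6 and 8.73, again without overlap, but just missed the threshold (-0.41, adjusted p = 0.058). Eci1, a second isomerase, was at 26.1 ± 3.58 and 21.9 ± 2.51 FPKM (-0.24, adjusted p = 0.15). With the mouse as a block, Decr1 (adjusted p = 0.010) and Eci1 (adjusted p = 0.027) were called lower, and the unblocked estimate of Eci1 without flow-through replicate 1 was -0.15.

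The carnitine shuttle brings long-chain acyl groups into mitochondria, and none of its 4 tested genes was called without the block. Cpt1a, the outer-membrane transferase that sets the rate of entry, was at 19.7, 23.1, 19.0 and 22.9 FPKM in flow-through replicates 1 to 4 and at 21.9, 28.9, 25.0 and 27.3 in enriched replicates 1 to 4. The ranges overlapped, but the enriched library was the higher one in 4 of 4 mice. The log2 fold change was 0.27 (SE 0.11, adjusted p = 0.093 by limma, or 0.019 with the mouse as a block) and turned to -0.06 under T-cell scaling. That scaling also moved the median of all tested genes from -0.02 to -0.33.

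Cpt1c, a brain isoform with little transferase activity, was below the filter with a mean of 0.738 FPKM and was not in the test across genes. It was at 1.13 ± 0.816 and 0.349 ± 0.204 FPKM, lower in the enriched library of 4 of 4 mice (two-sided exact permutation test over libraries, p = 0.057), and flow-through replicate 1 held 2.34 FPKM of it. Of the summed Cpt1a and Cpt1c level, Cpt1a took 94.9% ± 3.75 in flow-through and 98.6% ± 0.998 in enriched libraries, and the ranges overlapped. Slc25a20, the carnitine-acylcarnitine carrier of the inner membrane, was at 14.7 ± 1.74 and 16.2 ± 2.71 FPKM, with an estimate of 0.13 (95% interval -0.17 to 0.43). Under T-cell scaling, which moved the median of all tested genes to -0.33, this estimate was -0.19. Cpt2, the inner-membrane transferase, was at 13.8 ± 3.66 and 10.3 ± 2.28 FPKM and was called lower only with the mouse as a block (-0.38, adjusted p = 0.0084), and its unblocked estimate without flow-through replicate 1 was -0.22. Crat, carnitine acetyltransferase, was at 22.4 FPKM in flow-through replicate 1 and at 6.48 to 11.4 in the others, against 5.23 to 9.31 in the enriched libraries (-0.48, 95% interval -1.29 to 0.32, and -0.14 without flow-through replicate 1).

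Electron transfer flavoprotein takes electrons from the dehydrogenases to the respiratory chain, and none of its 3 genes was called. Etfa was at 69.0 ± 7.98 and 65.5 ± 6.14 FPKM, Etfb at 98.9 ± 6.35 and 90.9 ± 10.4, and Etfdh, the membrane-bound oxidoreductase that receives the electrons, at 24.5 ± 1.48 and 22.0 ± 0.512 (SD, n = 4 each). The Etfdh libraries did not overlap, at 23.6 to 26.7 and 21.4 to 22.5 FPKM, but the difference of -0.15 was small and not past the threshold (adjusted p = 0.14 by limma, or 0.11 with the mouse as a block).

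Among 3 genes of peroxisomal β-oxidation, 2 had estimates above 0, and none was called without the block. Acox3, an acyl-CoA oxidase that acts on branched chains, was at 13.9, 19.7, 16.0 and 20.4 FPKM in the flow-through and at 18.8, 25.4, 23.4 and 27.5 in the enriched fraction, in replicate order. It was higher in the enriched library of 4 of 4 mice, by a similar step in each, although the ranges overlapped. Its log2 fold change of 0.42 (SE 0.15, adjusted p = 0.069 by limma) was called with the mouse as a block (adjusted p = 0.0033) and was 0.10 (adjusted p = 0.69) under T-cell scaling. Hsd17b4, the bifunctional hydratase and dehydrogenase of peroxisomes, was at 26.6 ± 1.28 and 23.2 ± 1.27 FPKM without overlap (-0.19, adjusted p = 0.083, or 0.050 with the block). Acaa1a, a peroxisomal thiolase, was at 45.3 ± 4.61 and 49.3 ± 2.74 FPKM, with an estimate of 0.12 (95% interval -0.08 to 0.33). Under T-cell scaling, which moved the median of all tested genes to -0.33, this estimate was -0.21. On the opposite strand of Acaa1a, Myd88 shares 6.57% of its exon bases.

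The PPAR receptors bind fatty acids and switch on many genes of the pathway. Ppara, the main isoform of liver, was listed at 0 in 5 of the 8 libraries and at no more than 0.0307 FPKM in the others, too low for a comparison. Ppard, the widely expressed isoform, was at 8.98 ± 1.62 and 8.96 ± 0.600 FPKM, with a 95% interval of the log2 difference from -0.27 to 0.29.

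A further 61 genes of the same pathway were read from the same test. They were listed by role with earlier results of these data known, so their counts are not an independent check of the members. Of these, 51 reached the filter, 5 were called higher (9.8%, against 14.1% of all tested genes) and 14 lower (27.5%, against 13.7%). With the mouse as a block the counts were 7 (13.7%, against 22.2% of all) and 21 (41.2%, against 22.7%). The median log2 fold change was -0.17, near that of the members. The list also holds genes that act against or beside oxidation, such as Hilpda and Pecr below. These counts are therefore not counts of oxidation enzymes alone.

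Among receptors and coactivators, 1 of 6 tested genes was higher (16.7%, against 14.1% of all tested genes) and 3 were lower (50%, against 13.7%). Rxra, which encodes the retinoid X receptor that pairs with the PPARs, was at 7.89, 12.1, 11.8 and 11.1 FPKM in flow-through replicates 1 to 4 and at 36.3, 36.3, 35.5 and 34.1 in enriched replicates 1 to 4. The enriched libraries were all far above the flow-through ones. Rxra was higher by 1.66 on the log2 scale (SE 0.12, adjusted p = 0.00025 by limma), and by 1.34 under T-cell scaling (adjusted p = 0.0014). Its paralog Rxrb, at 48.3 to 52.8 and 34.7 to 38.4 FPKM, fell by 0.43 (SE 0.07, adjusted p = 0.0036). Ppargc1b, a coactivator of oxidative genes, fell by 0.56 (adjusted p = 0.041) and its relative Pprc1 by 0.66 (adjusted p = 0.021).

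Of 14 tested genes of peroxisomes, 2 were higher (14.3%, near the 14.1% of all tested genes) and 4 lower (28.6%, against 13.7%). Crot, which makes carnitine esters of the shortened chains that leave peroxisomes, was at 15.0 ± 2.05 and 22.1 ± 2.28 FPKM (0.54, SE 0.12, adjusted p = 0.011 by limma). Pecr, a peroxisomal enoyl-CoA reductase of chain elongation, fell by 0.95 (SE 0.14, adjusted p = 0.0027), from 9.39 ± 1.83 to 4.35 ± 0.609 FPKM. Abcd3, a peroxisomal membrane transporter of acyl-CoA, fell by 0.52 (SE 0.10, adjusted p = 0.0071).

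In mitochondria, 4 of 10 tested genes were lower (40%, against 13.7% of all tested genes) and 0 higher (against 14.1%). Pcca and Pccb, the subunits of propionyl-CoA carboxylase, which handles the 3-carbon end of odd chains, fell by 0.64 (adjusted p = 0.018 by limma) and 0.60 (adjusted p = 0.023). Acad10 and Acad11, less studied acyl-CoA dehydrogenases, fell by 0.58 (adjusted p = 0.037) and 0.46 (adjusted p = 0.014). Of genes of lipid droplets, Plin3, a droplet coat protein, was higher at 20.5 ± 3.36 and 33.0 ± 3.55 FPKM (0.67, SE 0.13, adjusted p = 0.0076), while Plin2, another coat protein, fell by 0.49 (adjusted p = 0.045) and Hilpda, an inhibitor of adipose triglyceride lipase, by 0.35 (adjusted p = 0.035). Slc27a4, a fatty acid transporter, was higher (0.39, adjusted p = 0.048) and Prkaa1, the catalytic α1 subunit of AMPK, lower (-0.44, adjusted p = 0.043). Of the genes named here, Acad10 and Hilpda lost their call in 7 of the 8 tests without 1 library, Plin2, Ppargc1b and Slc27a4 in 6, Prkaa1 in 5, Pprc1 in 4, Pccb in 3 and Pcca in 1. None of the 4 tested genes of ketone body metabolism was called without the block. Under T-cell scaling the 5 higher genes kept estimates above 0, and of them only Rxra was called.

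**Figure D5:**
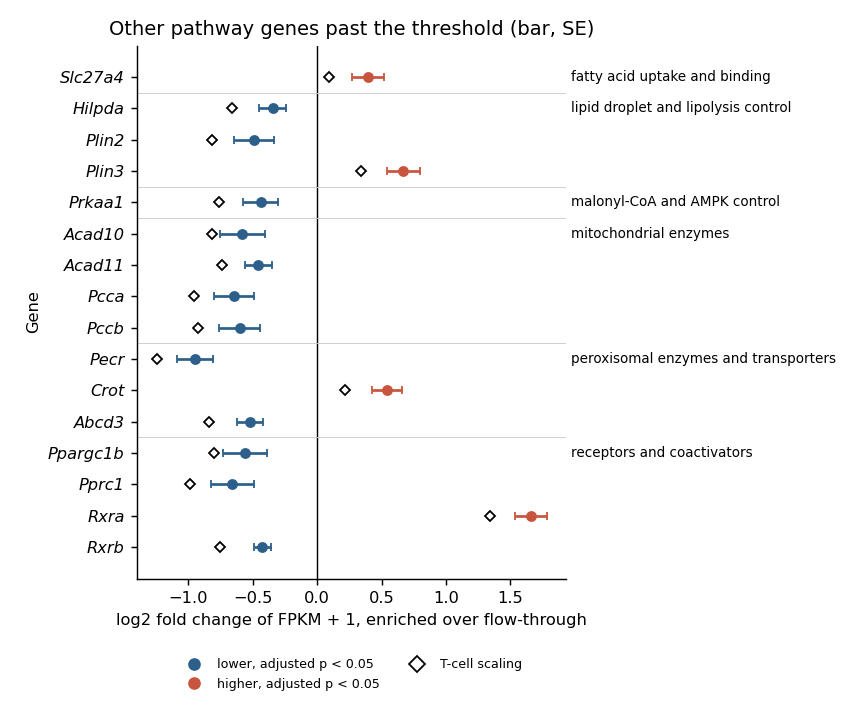
Log2 fold change of FPKM + 1, enriched over flow-through, for 16 further pathway genes past the threshold, up to 4 per role (points, estimates; bars, SE; 4 libraries per fraction; red higher, blue lower; open diamonds, T-cell scaling). Rxra stands apart at 1.66, and Pecr is lowest at -0.95.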

How the data were processed

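Total RNA of 8 bead-isolated CD8+ T-cell fractions was turned into stranded mRNA libraries for paired-end sequencing. Reads of low quality were dropped by the authors, who aligned the rest to mm10 with TopHat and ran Cufflinks 2.1.1 for gene levels, with corrections for multiply mapped reads and fragment bias. The deposited values are FPKM, and the annotation release is not given in the sources used here. FPKM hold no counts, so depth was estimated from the step between low values of genes with transcripts of at least 1500 bases and under 0.2 FPKM, and no count test was run. Overlaps and coordinates were taken from GENCODE M21.

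The labels gave the groups and numbers. Enriched and flow-through libraries were compared on log2(FPKM + 1) by limma 3.58.1 (R 4.3.3), with a variance trend and no block. Genes whose mean over the 8 libraries reached 1 FPKM were tested, and p-values were adjusted by Benjamini-Hochberg with a threshold of 0.05. Fold changes are on the log2(FPKM + 1) scale, which understates changes of low genes. The procedure was tested on simulated data whose noise was independent between libraries, so that test did not cover mice that give both fractions. Libraries of 1 number deviated together from their group means (r of 0.66, 0.59, 0.31 and 0.47), and, with 4 mice giving both fractions, were taken as pairs of 1 mouse. Libraries of unlike number had r of -0.60 to 0.41. The highest, for flow-through replicate 2 with enriched replicate 4, was above the 0.31 of replicate 3, so these values alone do not settle the pairing. The smallest p of an exact permutation test of 4 against 4 libraries is 0.029.

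Members and lists were chosen with earlier results of these data known. All 34 members were named, and of the other pathway genes up to 4 per role with an adjusted p under 0.05 and the largest change, 1 of which is not reported here. Alternatives were a pseudocount of 0.1, no filter or one at 5 FPKM, the mouse as a block, 3 other scalings, no variance trend and leaving out each library. T-cell scaling divided each library by the geometric mean of 8 CD8 T-cell identity genes.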

Additional observations from a re-analysis of the deposited data

Results flagged for a closer look

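Of 104 groups of 4 libraries examined for the members and the named pathway genes, 7 held 1 library far from the other 3 by Dixon's criterion, where chance gives about 1 in 20 groups. In flow-through replicate 1, Cpt1c was at 2.34 FPKM (others 0.611 to 0.804), Etfdh at 26.7 (others 23.6 to 23.9) and Ppara at 0.0161 (listed at 0 in the others). Acadvl was at 35.4 FPKM in flow-through replicate 2 (others 44.4 to 45.9), and Pcca at 12.8 in flow-through replicate 3 (others 14.5 to 14.8). In the enriched fraction, Pecr was at 5.26 FPKM in replicate 1 (others 3.95 to 4.16) and Crot at 25.5 in replicate 4 (others 20.8 to 21.3). Flow-through replicate 1, which held 3 of the 7, is the library with the lowest CD8 T-cell identity and the highest erythroid sum.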

How the results depend on the processing

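Of the 7 genes called lower, Acsl1, Acadm, Acaa2 and Eci2 kept the call in all 8 tests that left out 1 library, and only Acsl1 kept it under T-cell scaling as well. Acsl6 and Acads lost it without a filter, Acads and Acadvl with scaling to the summed FPKM, and Acads with median ratio scaling. Il18r1 stayed between 1.71 and 1.95 on the log2 scale without 1 library. With the replicate block, 2705 genes were called higher and 2763 lower, of the members 2 and 13. With T-cell scaling the counts were 509 and 906, with 1 member lower, and 1 other pathway gene higher and 7 lower. With both together, chosen after seeing the data, 612 genes, 0 members and 1 other pathway gene were higher and 2234 genes, 10 members and 14 other pathway genes lower, and Acsl1, Acsl6, Acadm, Acaa2 and Eci2 were called. Scaling to the summed FPKM gave 1 higher member, as did leaving out both libraries of mouse 1, also chosen after seeing the data. Without a filter, 7 other pathway genes were lower. The cause was not tested. Leaving out 1 library gave 1107 to 1813 genes higher and 939 to 1780 lower, 0 to 2 members higher and 4 to 7 lower, and 3 to 5 other pathway genes higher and 4 to 13 lower. The lowest of these counts came without enriched replicate 4 for all genes higher, without flow-through replicate 3 for all genes lower, and without enriched replicate 2 for other pathway genes lower. The members called lower were 4 without flow-through replicate 3 or without enriched replicate 2, 3 or 4, and the 2 higher members appeared without enriched replicate 1.

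Signs turned only for members not called in the unblocked test, among them Cpt1a, which the block called higher. T-cell scaling moved the median of all tested genes to -0.33. Under T-cell scaling, with or without the block, the log2 fold change became -0.292 for Pnpla2, -0.161 for Acsl4, -0.0551 for Cpt1a, -0.188 for Slc25a20, -0.324 for Echs1, -0.299 for Hadh, -0.284 for Hadha, -0.209 for Acaa1a and -0.302 for Ppard. Acadl was 0.00774 when scaled to the summed FPKM and 0.00786 with median ratio scaling. Without both libraries of mouse 1, Lipe was 0.0577 and Echs1 -0.0217. Leaving out 1 library gave ranges that spanned 0 for Pnpla2 (-0.00604 to 0.093), Lipe (-0.192 to 0.0715), Acadl (-0.0353 to 0.0221), Echs1 (-0.0361 to 0.0436), Hadh (-0.00404 to 0.073), Etfa (-0.132 to 0.00138) and Ppard (-0.0889 to 0.103). Depth was known only as an estimate, and differences of low genes such as Cpt1c and Ppara are limited by it.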
